A study of Mus musculus with 8 samples.

Results

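The transcriptional effect of ZNF384 fusion proteins was examined by setting both fusions together against both controls together. The fusion class held 4 libraries, 2 of TAF15-ZNF384 and 2 of TCF3-ZNF384, and the control class held 4 libraries, 2 of the empty vector and 2 of full-length ZNF384. These are all 8 of the 8 samples of the series, placed by the construct named in their labels. The change of a gene is the mean of the 2 fusion groups minus the mean of the 2 control groups on the log2 scale, so each group carries the same weight. All groups were mouse pre-B cells grown from bone marrow of C57BL/6 Arf-/- animals, transduced with lentivirus and sorted for GFP. The empty vector cells received the virus without an insert, and the others received HA-tagged full-length ZNF384, TAF15-ZNF384 or TCF3-ZNF384. Loss of Arf, a tumour suppressor product of Cdkn2a, is therefore shared by controls and fusions. Libraries were made from total RNA with a stranded kit, and the series describes its 2 replicates per group as biological. With no further word on separate cultures, the p-values measure the spread between these samples.

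ZNF384 is a zinc finger transcription factor. In B cell precursor leukaemia its gene is joined to several partners, and the resulting protein carries an N-terminal part of the partner in front of ZNF384. TAF15 is an RNA-binding protein of the FET family, and TCF3 encodes E12 and E47, the E proteins that drive early B cell development. Pre-B cells stand at the stage where the immunoglobulin heavy chain has been assembled and is displayed with a surrogate light chain as the pre-B cell receptor, and where the recombinase made by Rag1 and Rag2 can open the light chain loci.

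The libraries held 9381954 to 17876711 counts in the fusion class and 20298726 to 41483660 in the control class. Every fusion library was shallower than every control library, so depth cannot be told apart from class by the design. Levels are given as CPM, counts relative to the TMM-scaled library total, and 12970 of 32499 genes were abundant enough to be tested. The first principal component held 50.7% of the variance and placed the control libraries at −57.0 to −21.5 and the fusion libraries at 14.0 to 53.2. Markers of the pre-B cell, among them Cd79a, Cd79b and Vpreb1, summed to 7479 to 8697 CPM in the controls and 6667 to 7701 CPM in the fusions. Summed markers of macrophages were at 6.73 to 8.91 CPM in controls and 6.20 to 7.81 in fusions, and those of neutrophils at 0.874 to 1.33 and 0.317 to 0.736. Most of the macrophage sum was Cd68, at 4.42 to 6.16 CPM in controls and 3.91 to 5.82 in fusions. Its member Itgam rose at low counts: it did not exceed 0.0459 CPM in the controls. Itgam was at 0.109 and 0.106 CPM under TAF15-ZNF384 and 1.01 and 0.915 under TCF3-ZNF384. The defining markers Cd3e, Csf1r, Elane and Siglech of T cells, macrophages, neutrophils and plasmacytoid dendritic cells did not exceed 0.184 CPM in any library. Elane was at 0 in 7 of 8 libraries and Csf1r in 4. The stromal marker Col1a1 had counts in all 8 and reached 0.847 CPM. Summed stromal markers were at 176.5 to 195.5 CPM in the controls and 146.5 to 200.7 in the fusions. Dendritic cell markers were higher in the fusions, at 60.9 to 162 CPM against 35.7 to 58.8, and the sum was carried by Tcf4 and Flt3, which B cell progenitors also express. In such bulk samples fewer cells of a type and less RNA per cell cannot be told apart.

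Counts of Zfp384, the mouse gene orthologous to ZNF384, followed the constructs and served as a check of the labels. Zfp384 was at 23.97 and 21.6 CPM under the empty vector, 51.1 and 90.2 under full-length ZNF384, 185 and 162 under TAF15-ZNF384 and 511 and 450.2 under TCF3-ZNF384. The 4 fusion libraries were all above the 4 control libraries, and TCF3-ZNF384 was the highest group. The pooled log2 fold change was 2.85 ± 0.18 (SE, adjusted p = 1.1e-05), from edgeR's quasi-likelihood test, which gives all adjusted p-values below. How far reads of the constructs map to the mouse gene is not given in the sources used here, so these counts rank the constructs only roughly. Tcf3 was at 62.8 to 75.2 CPM in the 4 control libraries and 93.9 to 105 in the 4 fusion libraries, with no overlap, a log2 fold change of 0.48 ± 0.07 (SE, adjusted p = 0.000156) that was 0.23 after a trend on transcript length and GC content was removed. It was at 96.1 and 93.9 CPM under TAF15-ZNF384 and 98.85 and 105 under TCF3-ZNF384. How far construct reads count toward Tcf3 or Taf15 is likewise not given, and their part was not tested. Taf15 was lower, with a change of −0.29 (adjusted p = 0.0136). Its libraries overlapped, at 26.1 to 32.3 CPM in the 4 control libraries and 21.8 to 27.5 in the 4 fusion libraries. The Taf15 call ended with total-count scaling (adjusted p = 0.0671) and in a model with 2 classes in place of 4 groups (adjusted p = 0.0759). It also ended against the empty vector alone (adjusted p = 0.224) and with TAF15-ZNF384 alone (adjusted p = 0.15). Without empty vector replicate 1, TAF15-ZNF384 replicate 2 or TCF3-ZNF384 replicate 1 the call ended too, at −0.27, −0.21 and −0.25. Cdkn2a was at 58.95 to 79.2 CPM in the 4 control libraries and 59.5 to 100 in the 4 fusion libraries, a rise of 0.28 in log2 units (adjusted p = 0.0202), and counts per gene do not separate Arf from its other product. The Cdkn2a call ended in the model with 2 classes (adjusted p = 0.215) and against full-length ZNF384 alone (adjusted p = 0.185). With TAF15-ZNF384 alone the change of Cdkn2a was −0.029 (adjusted p = 0.878). Without either empty vector library the call ended as well, at 0.28 and 0.29. The same held without replicate 2 of TAF15-ZNF384 or of TCF3-ZNF384, at 0.24 and 0.28.

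Over all tested genes, 2765 rose (21.3%) and 2952 fell (22.8%) in the fusions, 5717 in all (44.1%). A change of at least 2-fold was seen in 1165 (8.98%), of which 812 rose (6.26%) and 353 fell (2.72%). The 4 fusion libraries lay entirely above the 4 control libraries in 1546 genes (11.9%) and entirely below them in 1908 (14.7%), whether called or not. Called and without overlap were 1422 risers (11%) and 1809 fallers (13.9%). A group of 481 risers (3.71%) and 274 fallers (2.11%) combined the call, a 2-fold change and no overlap. Of those 481 risers, 255 (53%) had a control mean below 1 CPM, and the median gene went from 0.889 to 3.37 CPM. Of the 274 fallers, 73 (26.6%) had a fusion mean below 1 CPM, and the median gene went from 11.5 to 4.71 CPM. The excess of strong risers lay mostly in genes of low level: at 5 CPM or more in the higher class the counts were 203 up and 178 down, and at 100 CPM or more 44 up and 58 down. A gene near 0 in the controls could be tested only if a fusion library held it, so this share is not that of all genes silent in the controls. Counts of called genes depended on what was taken as the spread: a model with 2 classes in place of 4 groups called 2998. They also depended on the controls used: in the same 4-group fit the fusions against the empty vector alone gave 3688. Total-count scaling gave 3217 risers and 2285 fallers, 58.5% of calls up against 48.4%, and removing the length and GC trend gave 2205 and 3646, or 37.7% up. Thinning every library to the total of the shallowest left 5221 calls, 2566 up and 2655 down.

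**Figure D1:**
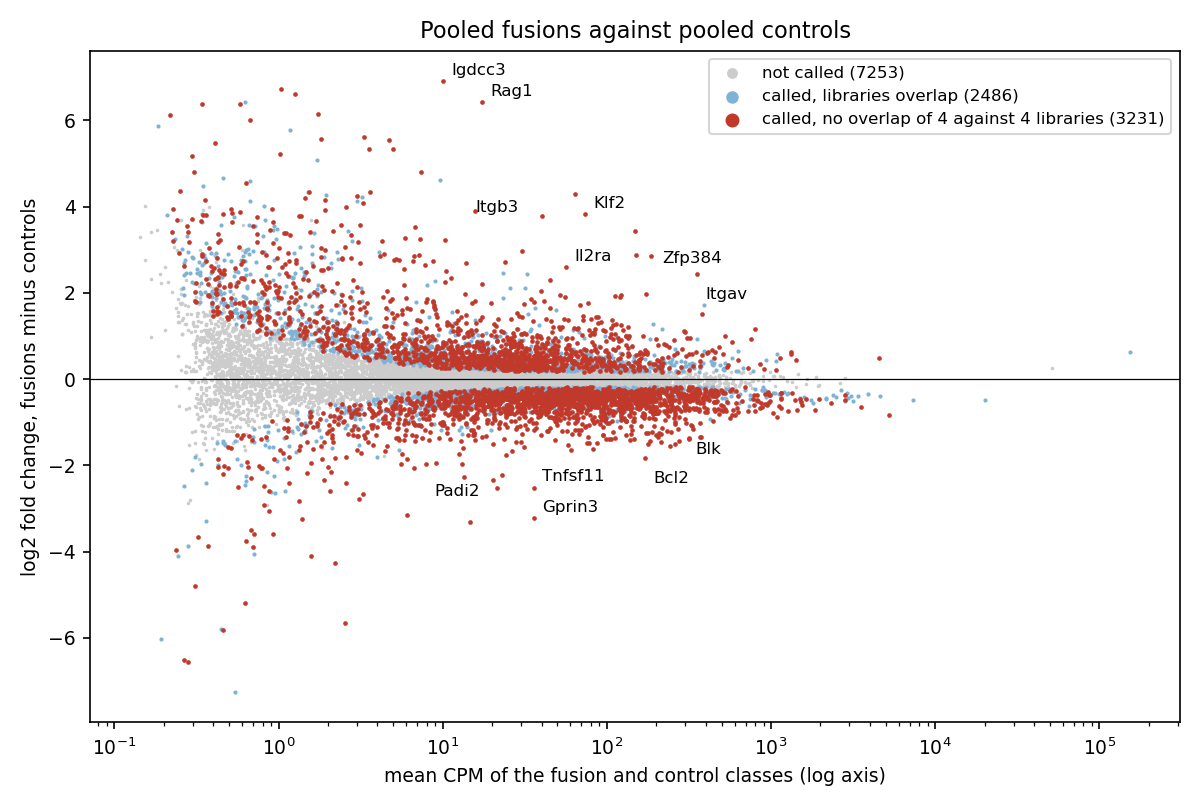
Log2 fold change of the pooled fusions over the pooled controls (vertical axis) against the mean CPM of both classes (horizontal, log axis), 1 point per tested gene. Red points are the 3231 called genes whose 4 fusion and 4 control libraries do not overlap, blue the 2486 called genes that overlap, grey the 7253 genes not called; Igdcc3 and Rag1 stand at the top and Gprin3 near the bottom of the well-expressed genes.

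A pooled change can come from several placements of the 4 groups. In 3231 of the 5717 called genes (56.5%; 26.6% of all tested genes) both fusions lay beyond both controls. A further 1024 (17.9%; 11.2% of all tested genes) had both fusions beyond full-length ZNF384 but only 1 of them beyond the empty vector, and 384 (6.72%; 11.9%) had both beyond full-length ZNF384 and neither beyond the empty vector. In 769 (13.5%; 14.9%) both fusions lay beyond the empty vector but not both beyond full-length ZNF384. Outside these placements, TCF3-ZNF384 alone lay beyond both controls in 268 (4.69%; 10.4%) and TAF15-ZNF384 alone in 40 (0.7%; 5.17%). These are not totals, because only 1 fusion lay beyond both controls in the 1024 genes as well, and in some of the 769. Besides the first placement, the one with 1 fusion beyond the empty vector was more frequent among calls than among all tested genes, and the other 4 given here were less frequent. In the 43.5% of pooled calls outside the first placement the fusion and control libraries overlapped, which 1 library can bring about. The named genes below are described by group.

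**Figure D2:**
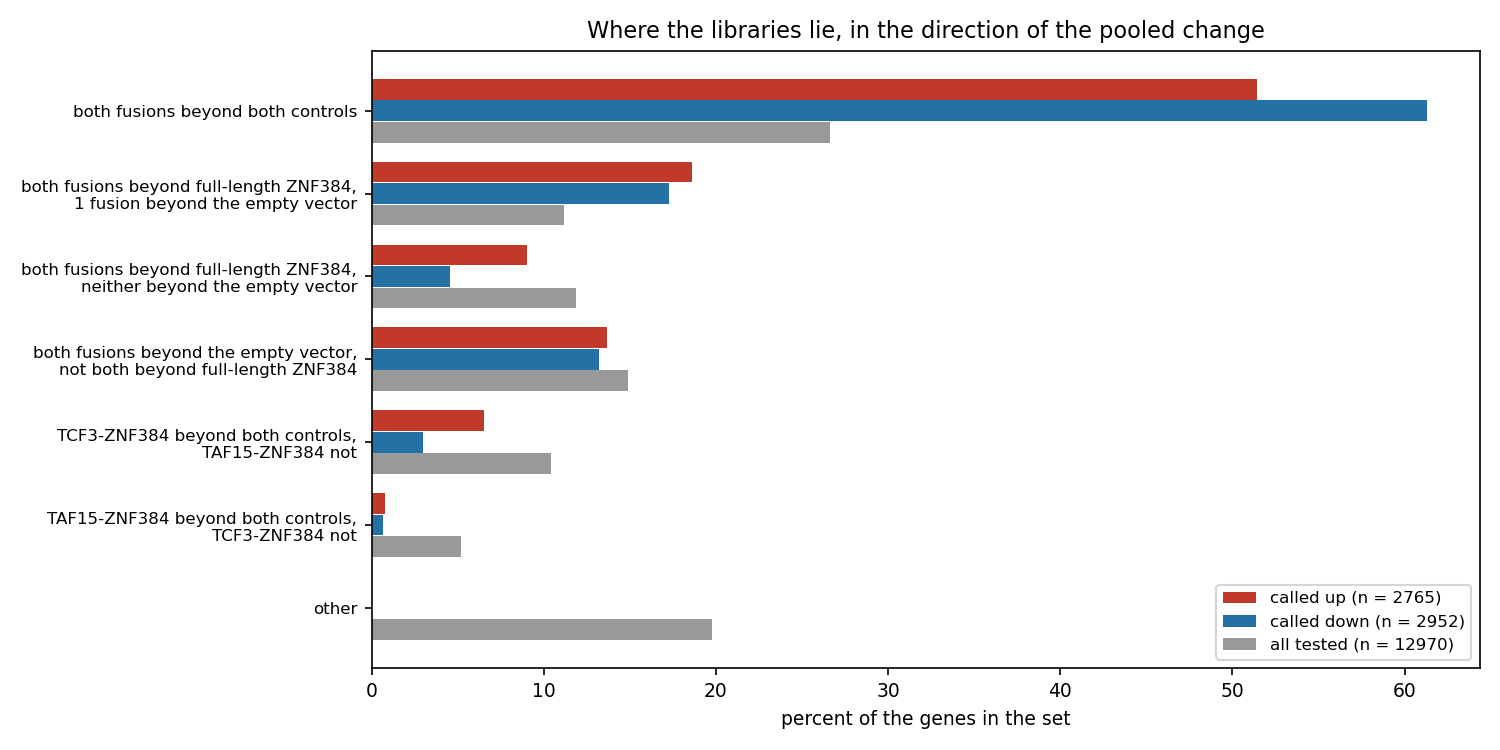
Share of genes (horizontal axis, percent) by where the libraries of the 4 groups lie in the direction of the pooled change, for the 2765 risers, the 2952 fallers and all 12970 tested genes. Both fusions lay beyond both controls in 51.4% of the risers and 61.3% of the fallers, against 26.6% of all tested genes.

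The largest increases at 5 CPM or more were in genes that the control cells hardly expressed. Rag1, which encodes the catalytic subunit of the V(D)J recombinase (mm9 chr2:101478439-101489658), led with Igdcc3, a cell surface protein gene of the immunoglobulin superfamily (mm9 chr9:64988961-65033664). Rag1 was at 0.547 and 0.202 CPM under the empty vector, 0.138 and 0.218 under full-length ZNF384, 6.63 and 9.31 under TAF15-ZNF384 and 67.6 and 55.1 under TCF3-ZNF384. Every fusion library was above every control library, and the TCF3-ZNF384 libraries were the highest. The log2 fold change of Rag1 was 6.43 ± 0.22 (SE, adjusted p = 1.82e-10). Igdcc3 was at 0.156 and 0.0403 CPM under the empty vector, 0.115 and 0.262 under full-length ZNF384, 8.48 and 8.25 under TAF15-ZNF384 and 29.9 and 32.7 under TCF3-ZNF384. Igdcc3 had the same order of groups, with a log2 fold change of 6.91 ± 0.22 (SE, adjusted p = 5.68e-11). Other genes of this kind were Agbl1, a cytosolic carboxypeptidase gene (mm9 chr7:83462958-83911494), at 5.62 ± 0.28 (SE, adjusted p = 5.83e-09), and Atp6v0a1, a subunit gene of the proton pump that acidifies vesicles (mm9 chr11:100870766-100925033), at 5.55 ± 0.27 (SE, adjusted p = 5.69e-09). Ybx2, which encodes a Y-box nucleic acid binding protein known from germ cells (mm9 chr11:69749298-69755107), went from between 0.252 and 0.939 CPM in the controls to between 8.25 and 20.1 in the fusions, a log2 fold change of 4.80 ± 0.18 (SE, adjusted p = 2.5e-10). Ankrd33b and Flrt1 rose too, by 5.34 ± 0.31 and 4.34 ± 0.26 on the log2 scale (adjusted p = 2.12e-08 and 2.75e-08).

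Among genes of at least 100 CPM, the largest increases without overlap were those of Klf2, Scube3, Samd9l, Zfp384, Il2ra and Itgav. Integrin alpha v and integrin beta 3, encoded by Itgav and Itgb3, form 1 receptor for matrix proteins such as vitronectin. Itgav was at 93.3 and 89.5 CPM under the empty vector, 117 and 114 under full-length ZNF384, 389 and 347 under TAF15-ZNF384 and 843 and 836 under TCF3-ZNF384. All 4 fusion libraries were above the controls, by a log2 fold change of 2.44 ± 0.07 (SE, adjusted p = 1.98e-11). Itgb3 was at 3.29 and 4.23 CPM under the empty vector, 4.38 and 4.33 under full-length ZNF384, 25.3 and 22.6 under TAF15-ZNF384 and 132 and 128 under TCF3-ZNF384. Itgb3 was thus low in every control library and at least 22.6 CPM in every fusion library, with a log2 fold change of 3.78 ± 0.10 (SE, adjusted p = 1.2e-11). Il2ra encodes CD25, the alpha chain of the interleukin-2 receptor, a surface marker used to stage B cell precursors. Il2ra was at 14.5 and 8.79 CPM under the empty vector, 10.7 and 15.5 under full-length ZNF384, 36.5 and 29.8 under TAF15-ZNF384 and 172 and 164 under TCF3-ZNF384. The log2 fold change of Il2ra was 2.60 ± 0.17 (SE, adjusted p = 8.47e-06). Samd9l, an interferon-inducible antiviral gene, was at 26.8 to 31.7 CPM in the 4 control libraries and 106 to 438 in the 4 fusion libraries, a log2 fold change of 2.88 ± 0.08 (SE, adjusted p = 1.98e-11). Scube3, which encodes a secreted EGF-repeat protein, rose from between 13.1 and 34.5 CPM in the controls to between 183 and 355 in the fusions, a log2 fold change of 3.44 ± 0.18 (SE, adjusted p = 3.69e-06). Klf2, a transcription factor gene of lymphocyte quiescence and trafficking, was at 31.8 and 65.0 CPM with the empty vector but 0.871 and 2.05 with full-length ZNF384, against 71.6 to 179 CPM in the fusion libraries. Its log2 fold change of 3.83 ± 0.33 (SE, adjusted p = 0.000383) was 2.30 in the 2-class model, where the call ended (adjusted p = 0.168).

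**Figure D3:**
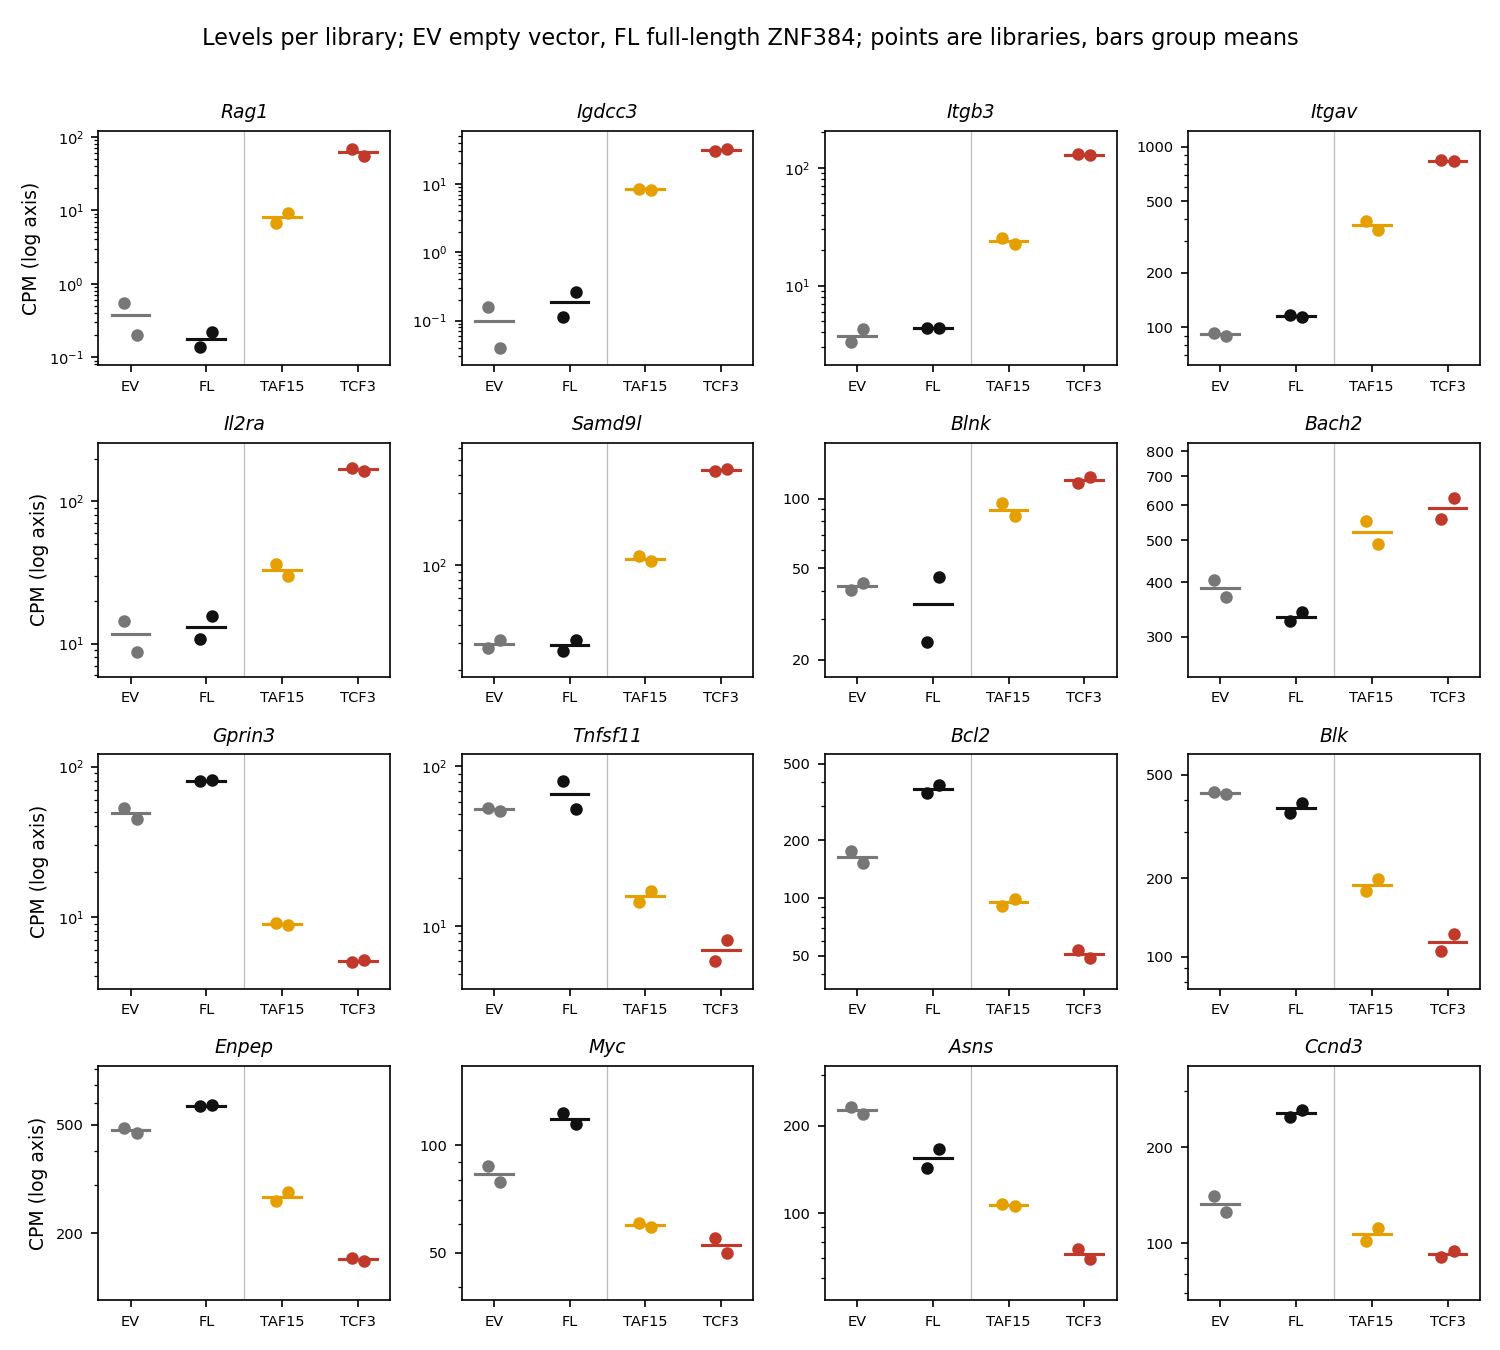
CPM per library (vertical log axes, each panel with its own range) for 16 genes in the empty vector (EV), full-length ZNF384 (FL), TAF15-ZNF384 (TAF15) and TCF3-ZNF384 (TCF3) groups; points are the 2 libraries of a group and bars their mean. In all 16 genes the 4 fusion libraries lie on one side of the 4 control libraries, and Rag1, Igdcc3, Itgb3 and Il2ra are highest with TCF3-ZNF384.

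Promoters of 2 leading risers and 2 leading fallers are shown because they can be searched for the elements that the partner proteins are known for: runs of A, which the zinc fingers of ZNF384 prefer, and E-boxes, which E proteins bind. Each window runs from 250 bases before to 50 bases after the gene's start, 5′ to 3′ on the gene's strand, from RefSeq on GRCm38.p6, a later build than the mm9 of the counts. Capitals mark CAGGTG or CAGCTG on either strand.
Rag1 (chr2:101649483-101649782, minus strand): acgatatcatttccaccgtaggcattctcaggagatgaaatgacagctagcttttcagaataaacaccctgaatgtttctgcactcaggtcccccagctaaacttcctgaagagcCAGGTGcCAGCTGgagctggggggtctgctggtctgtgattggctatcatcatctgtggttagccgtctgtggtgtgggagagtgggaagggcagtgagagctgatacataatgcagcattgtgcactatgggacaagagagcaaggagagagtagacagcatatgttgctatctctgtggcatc
Igdcc3 (chr9:65140904-65141203, plus strand): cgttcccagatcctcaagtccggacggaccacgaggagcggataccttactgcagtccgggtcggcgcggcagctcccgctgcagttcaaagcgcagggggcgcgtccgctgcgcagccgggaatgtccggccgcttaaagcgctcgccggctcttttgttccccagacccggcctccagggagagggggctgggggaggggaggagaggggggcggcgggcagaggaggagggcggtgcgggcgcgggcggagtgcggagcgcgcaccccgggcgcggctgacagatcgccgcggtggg
Gprin3 (chr6:59426257-59426556, minus strand): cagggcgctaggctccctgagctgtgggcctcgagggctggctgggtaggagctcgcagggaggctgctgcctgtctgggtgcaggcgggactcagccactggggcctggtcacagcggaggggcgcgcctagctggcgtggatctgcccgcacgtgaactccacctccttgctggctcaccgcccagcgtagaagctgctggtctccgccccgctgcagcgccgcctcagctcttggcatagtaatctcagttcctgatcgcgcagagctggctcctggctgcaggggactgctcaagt
Bhlha15 (chr5:144190036-144190335, plus strand): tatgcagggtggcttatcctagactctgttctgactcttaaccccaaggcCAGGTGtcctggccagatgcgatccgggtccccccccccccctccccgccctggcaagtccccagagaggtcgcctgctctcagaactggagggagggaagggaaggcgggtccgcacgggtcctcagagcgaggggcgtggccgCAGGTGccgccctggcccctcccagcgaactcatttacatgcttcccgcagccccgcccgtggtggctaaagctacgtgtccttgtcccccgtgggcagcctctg
The Rag1 and Bhlha15 windows held 2 such E-boxes each, and the Igdcc3 and Gprin3 windows held none. The 4 shown are not representative of the leading genes: of 11 listed windows of leading genes 3 held one, those of Rag1 and Ybx2 among 6 risers and that of Bhlha15 among 5 fallers. None of the 4 held AAAAAA on either strand. Of 9041 tested genes with a listed promoter, 29.1% held CAGGTG or CAGCTG. The share was 30.4% of the risers and 27.5% of the fallers, and 36.1% of 330 strong separated risers and 32.2% of 152 strong separated fallers with a promoter. AAAAAA was in 13.4% of tested genes, 14.3% of risers, 13.8% of fallers, and 16.1% and 13.2% of the strong separated risers and fallers. Over all 27025 listed promoters the shares were 32.6% for the E-boxes and 19.2% for AAAAAA. These matches describe the windows and do not mark bound sites.

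The largest decreases are given for called genes of at least 5 CPM in the controls without overlap, so the rule itself required expression in the controls. Genes below that level could fall as far, such as Ccr2, at −2.91. Gprin3 (mm9 chr6:59302455-59376284), a G protein regulated inducer of neurite outgrowth, led the decreases at 5 CPM or more. Gprin3 was at 53.3 and 44.8 CPM under the empty vector, 80.02 and 80.8 under full-length ZNF384, 9.13 and 8.78 under TAF15-ZNF384 and 4.97 and 5.12 under TCF3-ZNF384. All fusion libraries were far below the lowest control library, and the log2 fold change was −3.22 ± 0.09 (SE, adjusted p = 1.98e-11). Padi2, which encodes an enzyme that converts arginine to citrulline in proteins (mm9 chr4:140462259-140508501), fell from between 21.7 and 53.4 CPM in the controls to between 4.04 and 8.36 in the fusions, a log2 fold change of −2.52 ± 0.10 (SE, adjusted p = 5.5e-10). Tnfsf11 encodes RANKL, the cytokine that drives osteoclast formation (mm9 chr14:78677252-78707850). Tnfsf11 was at 54.6 and 52.7 CPM under the empty vector, 80.4 and 54.4 under full-length ZNF384, 14.1 and 16.6 under TAF15-ZNF384 and 5.98 and 8.13 under TCF3-ZNF384. Both fusions lay below both controls, with a log2 fold change of −2.51 ± 0.14 (SE, adjusted p = 1.35e-07). Bhlha15, the transcription factor gene MIST1 of secretory cells (mm9 chr5:144951155-144955310), was at 7.08 to 15.2 CPM in the 4 control libraries and 1.20 to 3.81 in the 4 fusion libraries, a log2 fold change of −2.05 ± 0.16 (SE, adjusted p = 3.46e-07). The protease inhibitor gene Cst7, the endoribonuclease gene Endou and the G protein regulator gene Rgs18 fell, with log2 fold changes of −2.28 ± 0.15, −2.22 ± 0.12 and −1.97 ± 0.10 (adjusted p = 1.17e-07, 1.42e-08 and 1.15e-08). Cd2, an adhesion receptor gene of lymphocytes, fell, at −1.96 ± 0.22 (adjusted p = 4.61e-05).

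Abundant fallers included Bcl2, whose product protects lymphocytes from apoptosis (mm9 chr1:108434755-108610851). Bcl2 was at 176 and 152 CPM under the empty vector, 354 and 389 under full-length ZNF384, 90.8 and 99.1 under TAF15-ZNF384 and 53.3 and 48.7 under TCF3-ZNF384. The 2 controls differed here, with full-length ZNF384 above the empty vector, and both fusions lay below both, at a log2 fold change of −1.83 ± 0.08 (SE, adjusted p = 1.31e-09). Against the empty vector alone the change of Bcl2 was −1.24 ± 0.09 (adjusted p = 4.03e-07), and against full-length ZNF384 alone it was −2.42 ± 0.09 (adjusted p = 4.96e-10). Sdf2l1, a chaperone gene of the endoplasmic reticulum, fell from between 88.5 and 186 CPM in the controls to between 30.3 and 50.9 in the fusions, a log2 fold change of −1.62 ± 0.10 (SE, adjusted p = 3.67e-08). Ribosomal protein genes were also among the largest abundant decreases. Rps2 was at 228 to 508 CPM in the 4 control libraries and 116 to 157 in the 4 fusion libraries, a log2 fold change of −1.51 ± 0.23 (SE, adjusted p = 0.00315). Reads of ribosomal protein genes can be shared with pseudogene copies, so the level of any one of them is uncertain.

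Genes of B cell development moved in both directions. The V(D)J recombination list held 12 tested genes, of which 4 rose and 4 fell, where 21.3% and 22.8% of all tested genes did, with a median log2 fold change of 0.01 against 0.01 for all tested genes. The risers included both recombinase subunits. Rag2 was at 0.0403 to 0.156 CPM in the 4 control libraries and 1.10 to 1.96 in the 4 fusion libraries, a log2 fold change of 3.77 ± 0.51 (SE, adjusted p = 5.11e-05), at levels near 1 CPM. Dntt, which encodes the polymerase TdT, was at 2.70 and 2.90 CPM under the empty vector, 9.49 and 18.0 under full-length ZNF384, 23.3 and 16.9 under TAF15-ZNF384 and 60.7 and 53.5 under TCF3-ZNF384. One library each of full-length ZNF384 and TAF15-ZNF384 overlapped for Dntt, whose log2 fold change was 2.46 ± 0.23 (adjusted p = 9.04e-05). The 2 subunits of Ku, the end-binding factor of DNA repair, moved apart: Xrcc6 rose by 0.90 ± 0.08 (SE, adjusted p = 1.93e-06) and Xrcc5 changed by −0.53 ± 0.08 (SE, adjusted p = 0.000189).

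In the pre-B cell receptor and signalling list 4 of 20 tested members rose and 10 fell (all tested genes: 21.3% and 22.8%). The list's median was −0.14. The adaptor gene Blnk, which links the receptor to calcium signalling, rose from between 23.8 and 45.96 CPM in the controls to between 83.99 and 124 in the fusions, a log2 fold change of 1.46 ± 0.20 (SE, adjusted p = 0.00101). The Src family kinase gene Blk had the smallest p of the fallers. Blk was at 429 and 421 CPM under the empty vector, 355 and 388 under full-length ZNF384, 178 and 198 under TAF15-ZNF384 and 105 and 122 under TCF3-ZNF384. All fusion libraries of Blk were below all control libraries, at −1.44 ± 0.07 (SE, adjusted p = 9.26e-09). The kinase gene Btk was at −0.81 ± 0.09 (SE, adjusted p = 7.35e-06), with TAF15-ZNF384 at 24.7 and 21.4 CPM overlapping full-length ZNF384 at 23.7 and 24.8. The surrogate light chain genes Igll1 and Vpreb1 were at −0.45 ± 0.07 and −0.41 ± 0.07 (adjusted p = 0.000109 and 0.000372), and in both the libraries overlapped. Vpreb2 was at −1.27 ± 0.09 (SE, adjusted p = 2.22e-07) without overlap, but it shares near-identical sequence with Vpreb1. The receptor components Cd79a and Cd79b did not pass the test, at −0.07 ± 0.07 and 0.06 ± 0.07 (adjusted p = 0.461 and 0.499).

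Of 20 B lineage transcription factors 10 rose and 3 fell (all tested genes: 21.3% and 22.8%), with a median of 0.24. Against the empty vector alone 5 rose and 2 fell (median 0.04), and against full-length ZNF384 alone 11 rose and 4 fell (median 0.37). After the length and GC trend was removed the median was 0.07. Sox4, Bach2 and Myb, which act in progenitor B cells, rose by 0.63 ± 0.07 (SE, adjusted p = 9.52e-06), 0.63 ± 0.07 (SE, adjusted p = 1.32e-05) and 0.72 ± 0.09 (SE, adjusted p = 2.76e-05), all without overlap. The change of Bach2 was 0.37 after the length and GC trend was removed. The master regulator Pax5 did not pass, at 0.07 ± 0.07 (adjusted p = 0.389), and Ebf1 rose by 0.26 ± 0.07 (adjusted p = 0.00746) with overlapping libraries. Ikzf1, Lef1 and Runx1 fell, at −0.36, −0.37 and −0.38, with calls that ended in the 2-class model (adjusted p = 0.0617, 0.209 and 0.0615). In the E protein and Id network 8 of 13 tested members rose and 1 fell, with a median of 0.38. Id2, an inhibitor of E proteins, was at 31.98 to 53.4 CPM in the 4 control libraries and 70.4 to 81.9 in the 4 fusion libraries, a log2 fold change of 0.95 ± 0.10 (SE, adjusted p = 5.81e-06). Hes1, a repressor induced by Notch, rose from between 42.1 and 61.7 CPM in the controls to between 103 and 115 in the fusions, a log2 fold change of 1.07 ± 0.09 (SE, adjusted p = 6.85e-07). Id3 was the faller, at −0.35 ± 0.09 (adjusted p = 0.00733), and its change was 0.11 with TAF15-ZNF384 alone.

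Of 25 B cell surface genes 8 rose, or 5 without TCF3-ZNF384 replicate 2, and 10 fell, with a median of −0.15. Over all tested genes 21.3% rose and 22.8% fell. Enpep, the aminopeptidase gene BP-1 used to stage pre-B cells, fell from between 469 and 593 CPM in the controls to between 157 and 282 in the fusions, a log2 fold change of −1.35 ± 0.07 (SE, adjusted p = 5.69e-09). Cd93, a marker of immature B cells, was at −0.74 ± 0.06 (SE, adjusted p = 9.62e-07), and Cd22, an inhibitory receptor gene, at −1.35 ± 0.16 (SE, adjusted p = 1.34e-05). Cd38, which encodes an ectoenzyme, Cd55, which encodes a complement inhibitor, and Cd180, a receptor gene of the Toll family, rose by 1.64 ± 0.16 (SE, adjusted p = 3.78e-06), 1.48 ± 0.11 (SE, adjusted p = 2.35e-07) and 1.63 ± 0.20 (SE, adjusted p = 2.17e-05). The 6 surface genes named here had no overlap between classes.

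**Figure D4:**
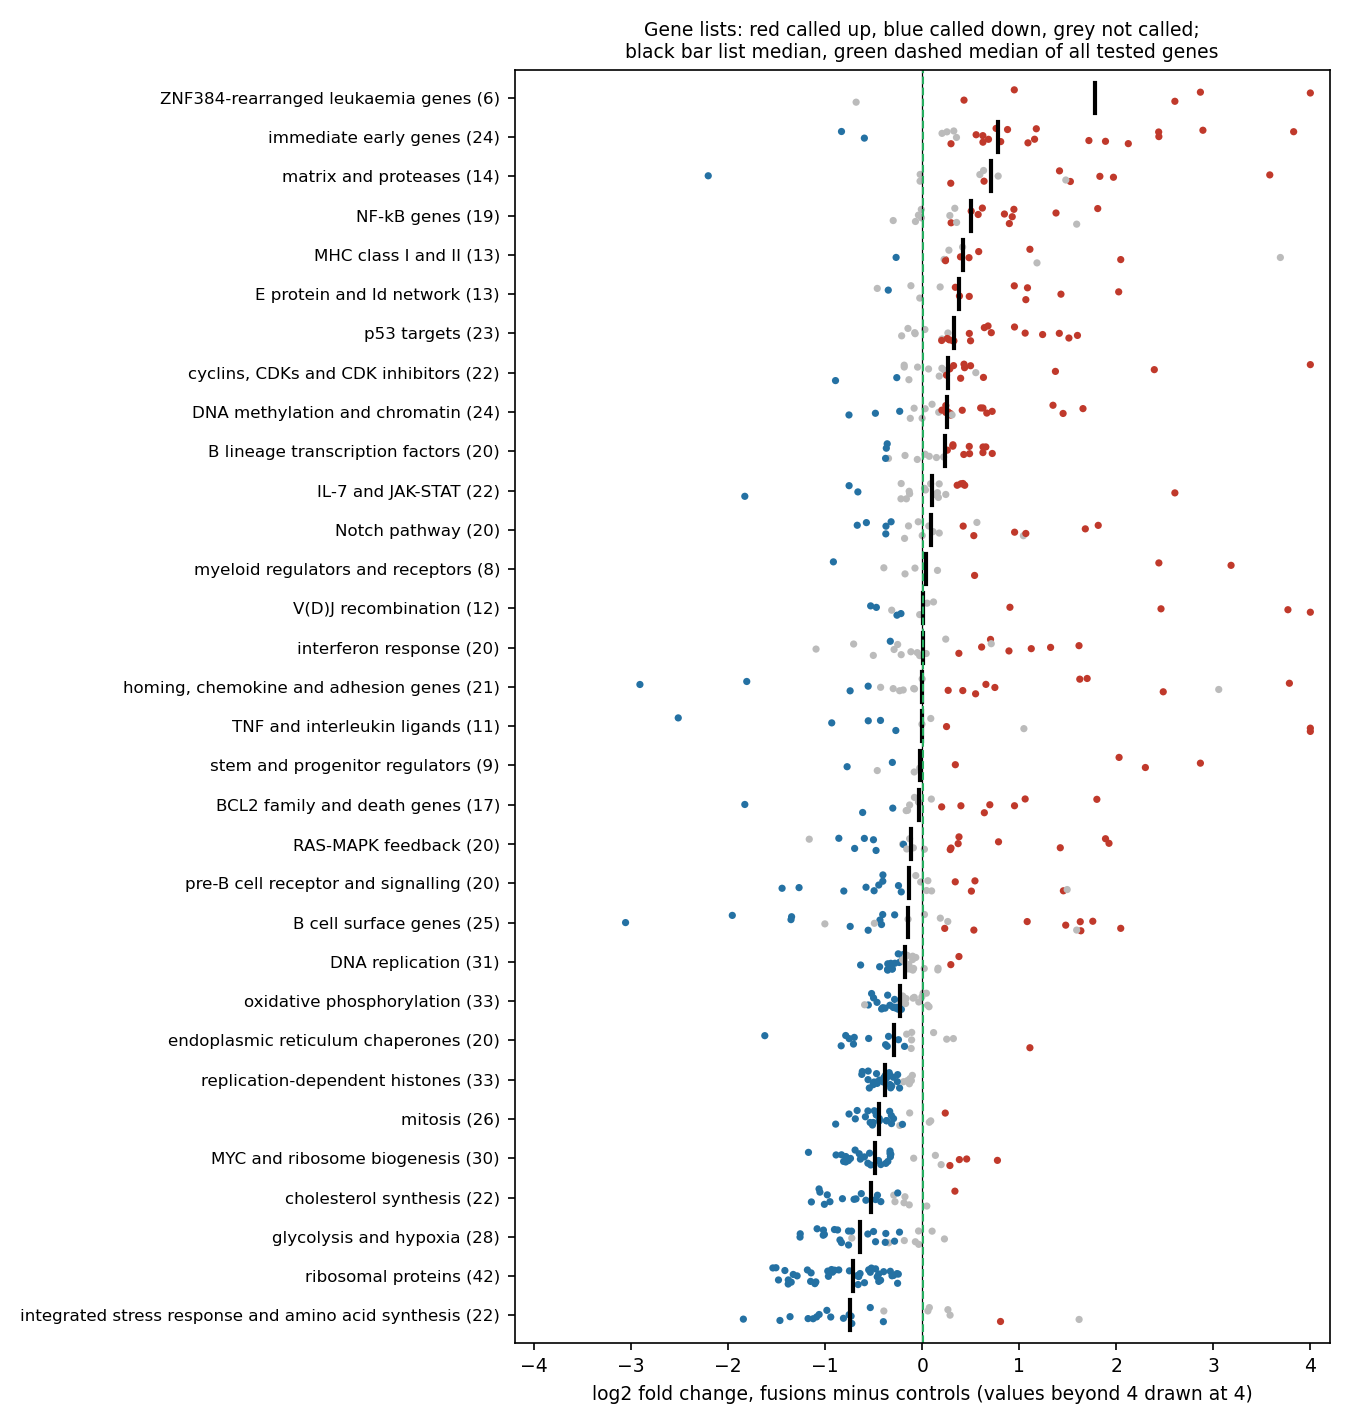
Log2 fold change of the pooled fusions over the pooled controls (horizontal axis) for the tested members of 32 gene lists, ordered by median (black bar); red members rose, blue fell, grey did not pass, and the dashed line is the median of all tested genes. All 42 genes of the ribosomal protein list are blue, and the leukaemia, matrix and immediate early lists lie furthest to the right.

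Genes linked to ZNF384-rearranged leukaemia formed a list of 12, of which 6 were tested and 5 rose without any falling (median 1.78). Over all tested genes 21.3% rose and 22.8% fell. Members near 0 in the controls could be tested only if a fusion held them, so the count is not one of the whole list. The untested members Cd33, Anpep, Gata3, Cebpa, Cd34 and Sall4 did not exceed 0.274 CPM in any library, fusions included. Flt3, the receptor tyrosine kinase gene of lymphoid progenitors, is high in this leukaemia. Flt3 was at 2.23 and 2.86 CPM under the empty vector, 0.642 and 0.612 under full-length ZNF384, 4.35 and 4.65 under TAF15-ZNF384 and 18.4 and 19.8 under TCF3-ZNF384. The fusion libraries were all above the controls, at a log2 fold change of 2.87 ± 0.16 (SE, adjusted p = 1.62e-08). Clcf1, a cytokine gene of the interleukin-6 family, rose from between 0.175 and 0.508 CPM in the controls to between 3.91 and 10.4 in the fusions, a log2 fold change of 4.09 ± 0.30 (SE, adjusted p = 2.01e-07). Matrix and protease genes rose in 7 of 14 tested members and fell in 1, with a median of 0.71. The collagenase gene Mmp13 had even levels in both fusions, at 272 to 281 CPM in the fusion libraries, against 48.1 to 83.5 CPM in the control libraries, and a log2 fold change of 1.97 ± 0.16 (SE, adjusted p = 2.07e-05). The laminin gene Lama5 rose by 1.53 ± 0.17 (SE, adjusted p = 8.47e-06), or 1.01 after the length and GC trend was removed. Of 21 homing and adhesion genes 9 rose and 4 fell, with a median of −0.0006. Itgb3 was on this list and Itgav was not. The integrin alpha 9 gene Itga9 rose by 1.62 ± 0.16 (SE, adjusted p = 2.94e-06), whereas the integrin alpha 4 gene Itga4 was at −0.74 ± 0.08 (SE, adjusted p = 9.18e-06). The leukaemia and matrix genes rose in libraries that also had a higher sum of dendritic cell markers, as given above, and Flt3 belongs to both lists. Summed erythroid and megakaryocyte markers were also higher in every fusion library, at 5.01 to 6.85 CPM against 3.54 to 4.92, and those of T and NK cells lower, at 65.2 to 72.9 CPM against 74.8 to 149. Of the 3 tested erythroid and megakaryocyte markers only the integrin gene Itga2b was called. Itga2b was at 1.22 to 2.54 CPM in the controls and 2.69 to 3.22 in the fusions. The part of other cells was not tested.

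Genes of growth and biosynthesis fell as broad groups. All 42 genes of the ribosomal protein list were tested and fell (22.8% of all tested genes), 36 of them without overlap (13.9%), with a median of −0.71. Ribosomal protein genes outside the list were not counted. Rpsa and Rpl23 were among those with the smallest p-values. Rpsa was at 677 and 539 CPM under the empty vector, 623 and 499.8 under full-length ZNF384, 304 and 352 under TAF15-ZNF384 and 280.00 and 265 under TCF3-ZNF384. All 4 fusion libraries were below all 4 controls, with log2 fold changes of −0.97 ± 0.09 (SE, adjusted p = 2.94e-06) for Rpsa and −0.86 ± 0.09 (SE, adjusted p = 5.54e-06) for Rpl23. Of 30 genes of the MYC and ribosome biogenesis list 23 fell and 4 rose, with a median of −0.49. Myc, the growth-promoting transcription factor gene, fell. Myc was at 87.8 and 78.7 CPM under the empty vector, 123 and 115 under full-length ZNF384, 60.5 and 59.03 under TAF15-ZNF384 and 54.9 and 49.97 under TCF3-ZNF384. Neither fusion overlapped a control for Myc, at −0.83 ± 0.07 (SE, adjusted p = 9.78e-07). Polr1b, a subunit gene of RNA polymerase I, and Srm, the spermidine synthase gene, fell, at −0.89 ± 0.09 (SE, adjusted p = 3.99e-06) and −1.17 ± 0.10 (SE, adjusted p = 1.27e-06). The risers of that list were Mxd1, Mxd3 and Mxi1, which encode antagonists of MYC, and the ribosomal DNA transcription factor gene Ubtf, and Mxd1 was at −0.35 against the empty vector alone.

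Amino acid, sugar and sterol metabolism moved the same way. In the integrated stress response and amino acid synthesis list 15 of 22 members fell and 1 rose, with a median of −0.74. Asns was at 233 and 219.8 CPM under the empty vector, 143 and 167 under full-length ZNF384, 107 and 106 under TAF15-ZNF384 and 75.4 and 69.5 under TCF3-ZNF384. Asns, the asparagine synthetase gene, thus had its 4 lowest values in the fusions, with a log2 fold change of −1.09 ± 0.07 (SE, adjusted p = 9.47e-08), and the serine synthesis gene Phgdh was at −1.06 ± 0.08 (SE, adjusted p = 1.68e-07). The riser was Ddit3, a stress transcription factor gene, which was at −0.56 against the empty vector alone. Of 28 glycolysis and hypoxia genes 20 fell and none rose, with a median of −0.64, and 11 fell without overlap. Among all tested genes 22.8% fell, 13.9% without overlap, and 21.3% rose. Pgk1 and Pfkp, which encode phosphoglycerate kinase and platelet phosphofructokinase, fell, at −1.26 ± 0.09 (SE, adjusted p = 1.12e-07) and −1.26 ± 0.08 (SE, adjusted p = 6.44e-08). The liver isozyme gene Pfkl was at 101 and 102 CPM with the empty vector, 328 and 404 with full-length ZNF384, and 81.4 to 99.7 CPM in the fusion libraries. Its change of −1.08 ± 0.08 (SE, adjusted p = 2.24e-07) was −0.16 against the empty vector alone (adjusted p = 0.246). Of 22 cholesterol synthesis genes 15 fell and 1 rose, with a median of −0.53. Nsdhl, a sterol dehydrogenase gene, was at −1.05 ± 0.08 (SE, adjusted p = 1.68e-07). For these lists the choice of control set the size: against the empty vector alone the medians were −1.04, −0.26 and −0.20 for stress and amino acid, glycolysis and cholesterol genes, and against full-length ZNF384 alone −0.49, −0.87 and −0.99. Each pair shares its fusion libraries.

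Of 26 mitosis genes 21 fell and 1 rose, with a median of −0.44. Among all tested genes 22.8% fell, 13.9% without overlap, and 21.3% rose. Ccnb2, the cyclin B2 gene, was at 114 to 207 CPM in the 4 control libraries and 78.9 to 99.1 in the 4 fusion libraries, a log2 fold change of −0.75 ± 0.09 (SE, adjusted p = 2.34e-05). Ube2c and Cenpa, which encode a ubiquitin-conjugating enzyme of mitotic exit and the centromeric histone, fell, at −0.89 ± 0.11 (SE, adjusted p = 5.54e-05) and −0.49 ± 0.07 (SE, adjusted p = 7.41e-05). Of 33 replication-dependent histone genes 27 fell and none rose, with a median of −0.38, but only 2 had no overlap and the 2-class model called 2 of them. The median was −0.07 with TAF15-ZNF384 alone and −0.65 with TCF3-ZNF384 alone. Of 33 oxidative phosphorylation genes 17 fell and none rose (median −0.23). That count was 11 without TAF15-ZNF384 replicate 1 and 10 without TCF3-ZNF384 replicate 2, and 6 fell against the empty vector alone and 23 against full-length ZNF384 alone. Of 20 endoplasmic reticulum chaperones 12 fell and 1 rose (median −0.30).

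**Figure D5:**
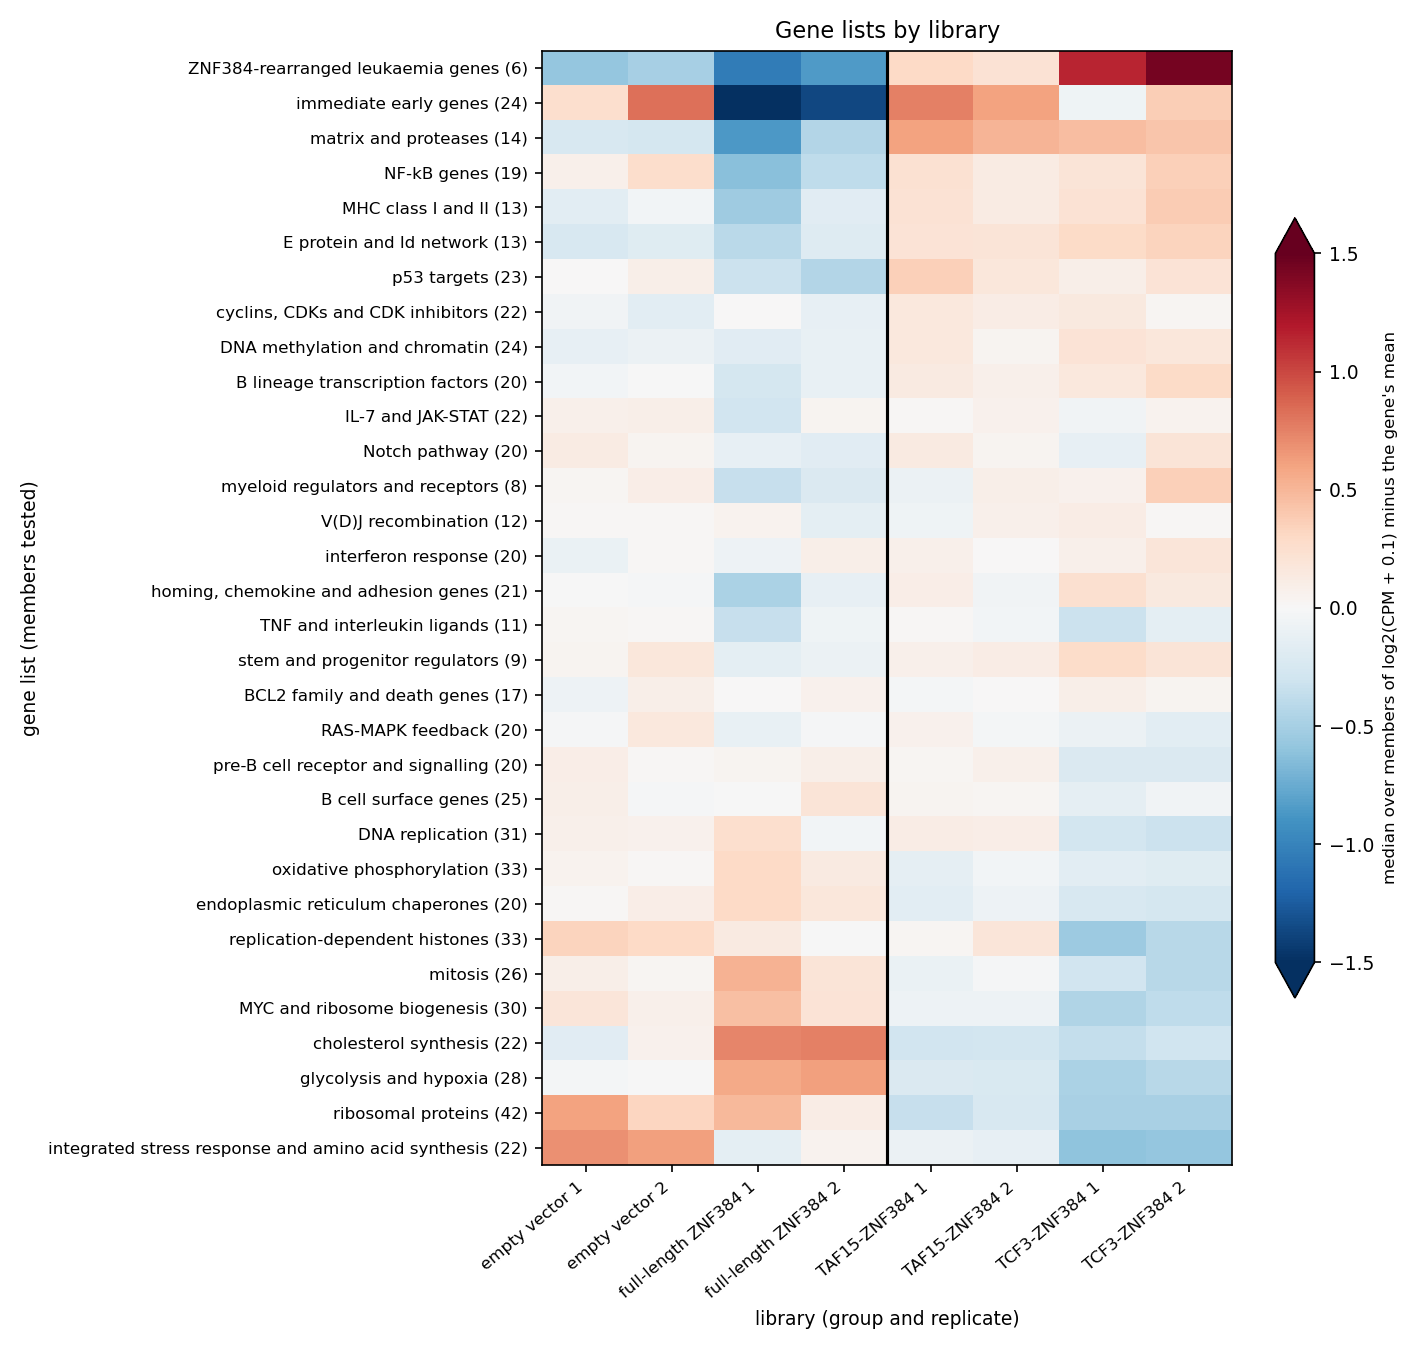
Median level of the tested members of 32 gene lists (rows) in each of the 8 libraries (columns), as log2(CPM + 0.1) relative to each gene's mean over the libraries; red is higher and blue lower. The ribosomal protein row runs from 0.114 to 0.603 in the controls and −0.489 to −0.240 in the fusions, whereas the immediate early row is low only with full-length ZNF384, at −1.76 and −1.36.

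Some lists rose in the pooled comparison while the fusions lay close to the empty vector and full-length ZNF384 was low. Immediate early genes, which growth factors induce quickly, rose in 18 of 24 members and fell in 2, with a median of 0.79. Only 1 riser had no overlap. Among all tested genes 21.3% rose, 11% without overlap, and 22.8% fell. Without full-length ZNF384 replicate 1 the risers were 9, and the 2-class model called none of the list as risen. Fos was at 29.8 and 60.7 CPM under the empty vector, 0.986 and 1.75 under full-length ZNF384, 56.1 and 47.8 under TAF15-ZNF384 and 25.04 and 39.4 under TCF3-ZNF384. Fos, a subunit gene of the AP-1 transcription factor, was low with full-length ZNF384 and overlapped between the empty vector and the fusions. The list's median was −0.17 against the empty vector alone, where 1 member rose and 3 fell, and 2.08 against full-length ZNF384 alone. The log2 fold change of Fos was 2.44 ± 0.35 (SE, adjusted p = 0.00274), and it was −0.14 against the empty vector alone. Dusp5, a phosphatase gene that restrains ERK, was the other way round: it fell, at −0.60 ± 0.09 (SE, adjusted p = 0.000101), with no overlap. The libraries of full-length ZNF384 also had the lowest share of 5 abundant non-coding genes, 10.9 and 12.5% against 18.5 to 33.2% in the others, and the part of this share was not tested.

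The medians of NF-kB and p53 genes were also smaller against the empty vector than against full-length ZNF384. Over all tested genes 21.3% rose, 11% without overlap, and 22.8% fell. Of 19 NF-kB genes 10 rose and none fell, with a median of 0.51, which was 0.04 against the empty vector alone and 0.75 against full-length ZNF384 alone. Of these NF-kB genes 4 rose and 2 fell against the empty vector alone, and 14 rose and none fell against full-length ZNF384 alone. The 2-class model called 3 of them as risen. Relb, a subunit gene of the non-canonical pathway, was at 1.31 to 8.87 CPM in the 4 control libraries and 9.31 to 15.6 in the 4 fusion libraries, a log2 fold change of 1.81 ± 0.16 (SE, adjusted p = 8.32e-07), and its call ended in the 2-class model (adjusted p = 0.0985). Birc3, an inhibitor of apoptosis gene and NF-kB target, rose by 0.93 ± 0.07 (SE, adjusted p = 2.51e-07) without overlap. Of 23 p53 targets 16 rose and none fell, 7 without overlap, with a median of 0.33. Against the empty vector alone 6 of the p53 targets rose and 2 fell (median 0.17). Against full-length ZNF384 alone 14 rose and none fell (median 0.61), and the 2-class model called 7 as risen. Pmaip1, the BH3-only death gene NOXA, rose from between 12.3 and 34.3 CPM in the controls to between 36.8 and 53.03 in the fusions, a log2 fold change of 1.06 ± 0.13 (SE, adjusted p = 7.75e-05), and its call ended in the 2-class model (adjusted p = 0.0545). Of 13 MHC genes 7 rose and 1 fell, with a median of 0.42, or 0.41 against the empty vector alone, where 2 rose, and 0.38 against full-length ZNF384 alone, where 7 rose. Without TAF15-ZNF384 replicate 1, and also without TCF3-ZNF384 replicate 2, 4 rose. B2m, the invariant chain gene of class I, rose from between 71.6 and 129 CPM in the controls to between 140.5 and 154 in the fusions, a log2 fold change of 0.58 ± 0.09 (SE, adjusted p = 0.000191). H2-K1, a class I heavy chain gene with close paralogs, rose by 1.11 ± 0.14 (SE, adjusted p = 0.000291), and its call ended against the empty vector alone (0.47, adjusted p = 0.0764).

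The 2 fusions that the comparison averages were not equal. TCF3-ZNF384 differed from TAF15-ZNF384 in 1308 genes (10.1%), with 767 higher (5.91%) and 541 lower (4.17%). Of the 2765 pooled risers 1973 (71.4%) were higher with TCF3-ZNF384 than with TAF15-ZNF384, and of the 2952 fallers 794 (26.9%), against 6505 (50.2%) of all tested genes. Among the 481 strong separated risers 136 were called higher with TCF3-ZNF384 and 2 lower, and among the 274 fallers 47 were called lower and 1 higher. The same fusion libraries give both quantities. Rag1 was higher with TCF3-ZNF384 by 2.94 ± 0.19 (adjusted p = 6.45e-07), Itgb3 by 2.44 ± 0.12 (adjusted p = 9.82e-08), Samd9l by 1.97 ± 0.11 (adjusted p = 1.7e-07) and Flt3 by 2.09 ± 0.19 (adjusted p = 1.06e-05). Bcl2 and Enpep were lower, at −0.90 ± 0.11 (adjusted p = 0.000156) and −0.77 ± 0.09 (adjusted p = 0.000114). Mmp13, Hes1 and Id2 did not pass the test between the fusions, at −0.01 ± 0.21 (adjusted p = 0.986), −0.02 ± 0.13 (adjusted p = 0.952) and −0.16 ± 0.14 (adjusted p = 0.551). Zfp384 reads were also higher with TCF3-ZNF384, by 1.47 ± 0.24 (adjusted p = 0.00772), and the part of construct level was not tested. The count of 1308 was unstable: leaving out 1 library gave 411 to 2363.

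Some pooled calls came from 1 fusion. Tfr2 was at 0.117 and 0.161 CPM under the empty vector, 0.0459 and 0.0874 under full-length ZNF384, 0.109 and 0.106 under TAF15-ZNF384 and 12.1 and 8.40 under TCF3-ZNF384. Tfr2, the transferrin receptor 2 gene of erythroid cells and liver, was at control levels with TAF15-ZNF384, so its pooled log2 fold change of 3.45 ± 0.81 (SE, adjusted p = 0.00352) described TCF3-ZNF384. Elavl3 was at 1.56 and 0.766 CPM under the empty vector, 0.711 and 0.655 under full-length ZNF384, 3.91 and 2.54 under TAF15-ZNF384 and 56.1 and 58.8 under TCF3-ZNF384. Elavl3, a neuronal RNA-binding protein gene, was above the controls in both fusions, but by far more with TCF3-ZNF384. Nov, a matricellular growth regulator gene, was low with TAF15-ZNF384 and within the control range with TCF3-ZNF384: it was at 6.63 and 7.62 CPM under TAF15-ZNF384 and 33.5 and 27.6 under TCF3-ZNF384, against 18.3 to 37.97 CPM in the control libraries. Its pooled change of −0.76 ± 0.12 (adjusted p = 0.000273) matched neither fusion, and with TCF3-ZNF384 alone it was 0.29 (adjusted p = 0.0946).

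The controls that the comparison averages differed as well, in 2675 genes (20.6%), of which 1395 were higher with full-length ZNF384 (10.8%) and 1280 lower (9.87%). Leaving out 1 library gave 1048 to 3791. Both fusions together differed from full-length ZNF384 in 6023 genes (46.4%) and from the empty vector in 3688 (28.4%). By pair, TAF15-ZNF384 differed from the empty vector in 1430 genes (11%), with 650 higher (5.01%) and 780 lower (6.01%), and from full-length ZNF384 in 4320 (33.3%). TCF3-ZNF384 differed from the empty vector in 4317 (33.3%) and from full-length ZNF384 in 5916 (45.6%). TAF15-ZNF384 against both controls gave 3343 (25.8%) and TCF3-ZNF384 gave 5624 (43.4%). Arl4d, a gene of the ARF family of small GTPases, showed how an average can hide this. Arl4d was at 8.02 and 15.8 CPM under the empty vector, 0.459 and 0.568 under full-length ZNF384, 13.3 and 12.5 under TAF15-ZNF384 and 6.81 and 14.2 under TCF3-ZNF384. The fusion libraries of Arl4d overlapped those of the empty vector and lay above those of full-length ZNF384. Its pooled change was 2.27 ± 0.34 (SE, adjusted p = 0.00134), and against the empty vector alone it was −0.0080 (adjusted p = 0.99).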

How the data were processed

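Total RNA of 8 sorted mouse pre-B cell samples was sequenced in 4 groups of 2. The values are raw counts per gene that the authors deposited in 1 table of 32499 genes, made with HTSeq 0.6.1p1 on the mm9 build per the submitters' processing notes. The aligner, the annotation and the strand setting are not given in the sources used here, so overlapping and antisense genes may share reads. The analysis used edgeR 4.0.16 under R 4.3.3: filterByExpr by group kept 12970 genes, libraries were scaled by TMM, and a robust quasi-likelihood model with 1 term per group (4 residual degrees of freedom) gave every contrast as a 2-sided F test with Benjamini-Hochberg adjustment over the tested genes and a threshold of 0.05. The contrast of the pooled classes is the mean of the 2 fusion groups minus that of the 2 control groups. Errors of fold changes are SE from the fit. Totals of 9381954 to 41483660 counts per library set the counting precision. Of the table's genes 10419 had no count in any library, and the 13 mitochondrial genes summed to 0.

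The comparison, the 32 gene lists and the rule for named genes were chosen with earlier results of these data known, so lists are described by counts and medians and carry no test. The rule took Zfp384, Taf15, Tcf3 and Cdkn2a. Eligible otherwise were called, properly named genes of at least 5 CPM in the higher class with no overlap of the libraries. It took the 8 largest changes per direction, the 6 whose smallest change over the 4 fusion and control pairs was largest, and the 6 largest at 100 CPM or more. Overlapping genes were allowed in 2 further parts, the 4 per direction with the largest called difference between the fusions or between the controls. From each list came at most 3 risers and 3 fallers of smallest p and its defining members. The text prints some of these genes, and a few others that the rule takes are not reported here. Coordinates are mm9 (NCBIM37, GENCODE vM1) and promoter windows are RefSeq on GRCm38.p6. Alternatives were DESeq2 size factors, total-count scaling, leaving out 5 abundant non-coding genes, no filter, at least 2 CPM in 2 libraries, the DESeq2 1.42.0 Wald test, limma-voom (3.58.1), a 2-class model, a replicate term, thinning to the shallowest library, removal of a length and GC trend (both known for 81.7% of tested genes), each group alone, and leaving out each library. The scripts were tested on simulated data.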

Additional observations from a re-analysis of the deposited data

Results flagged for a closer look

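TCF3-ZNF384 replicate 2, with 17876711 counts, stood apart in depth from the other 3 fusion libraries, which held 9381954 to 9963494. The gap to the next library was 0.932 of the range, above the 95% critical value of Dixon's test for 4 libraries. Chance passes that value in about 1 in 20 such groups, and 6 groups were looked at in both directions. Without that library 4470 genes were called in the pooled comparison, and thinning all libraries to the shallowest left 5221. Groups of 2 libraries were too small for this test of single genes.

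The response differed between the fusions, by edgeR's quasi-likelihood test of TCF3-ZNF384 minus TAF15-ZNF384, for 8 genes taken by the rule as the largest such differences among the pooled calls. Among risers these were Tfr2 (log2 difference 6.49, adjusted p = 3.43e-06), Cubn, an endocytic receptor gene (4.67, adjusted p = 1.59e-05), Trpa1, an ion channel gene (4.26, adjusted p = 1.16e-06), and Elavl3 (4.16, adjusted p = 1.21e-07). Among fallers they were Nov (2.09, adjusted p = 1.08e-05), Vipr1, a neuropeptide receptor gene (−1.93, adjusted p = 0.00465), Sla, an adaptor gene that dampens receptor signalling (−1.56, adjusted p = 0.000546), and Ramp1, a receptor partner gene (−1.55, adjusted p = 9.73e-06). Trpa1 was at 0.235 and 0.0806 CPM under the empty vector, 0.0459 and 0.0874 under full-length ZNF384, 0.979 and 0.952 under TAF15-ZNF384 and 20.7 and 16.6 under TCF3-ZNF384. In Trpa1 both fusions were above both controls and TCF3-ZNF384 far above TAF15-ZNF384. Vipr1 was at 6.80 and 9.31 CPM under the empty vector, 3.21 and 4.67 under full-length ZNF384, 3.37 and 2.86 under TAF15-ZNF384 and 0.736 and 0.862 under TCF3-ZNF384. Vipr1 was lowest with TCF3-ZNF384, and one TAF15-ZNF384 library overlapped full-length ZNF384.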

How the results depend on the processing

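The count of 5717 changed genes was 5728, 5502 and 5716 with DESeq2 size factors, total-count scaling and without 5 non-coding genes, 5822 and 5357 without a filter and at 2 CPM, 4975 and 5609 with the DESeq2 Wald test and limma-voom, and 5221 and 5851 after thinning and after removing the length and GC trend. It was 2998 in the 2-class model, which kept 52.1% of the calls, 3688 against the empty vector alone and 3343 with TAF15-ZNF384 alone. The cause of these shifts was not tested, except that the 2-class model counts differences between groups of a class as spread. Leaving out 1 library gave 4424 to 6631. The same gave 411 to 2363 for TCF3-ZNF384 against TAF15-ZNF384 (1308), with the lowest without TAF15-ZNF384 replicate 2 and the highest without full-length ZNF384 replicate 1, and 1048 to 3791 for full-length ZNF384 against the empty vector (2675), with the lowest without empty vector replicate 2. Replicate numbers were not stated to mark a shared culture, and deviations of same-numbered libraries correlated at 0.0136 to 0.225. With the replicate number as a block 5921 genes were called, and no named gene lost its call. Over 174 named genes and 23 settings, 3735 values kept direction and call, 244 kept direction only and 17 changed sign. The sign changed against the empty vector alone for Fos (−0.14), Egr1 (−0.081), Arl4d (−0.0080), Sla (0.067), Amotl1 (0.19), Dll1 (−0.58), Bbc3 (−0.16), Ddit3 (−0.56), Mxd1 (−0.35) and Dusp4 (−0.18). It changed with TAF15-ZNF384 alone for Cdkn2a (−0.029), Sla (0.34), Ramp1 (0.0092), Id3 (0.11) and Uhrf1 (0.10), with TCF3-ZNF384 alone for Nov (0.29), and against full-length ZNF384 alone for Id3 (0.052). Of 32 list medians 12 changed sign under at least 1 setting, most of them near 0. The Notch median turned from 0.09 to −0.10 and that of the IL-7 list from 0.10 to −0.07 after the length and GC trend was removed, and the myeloid median from 0.04 to −0.16 at 2 CPM. Against the empty vector alone the IL-7 median was −0.13. With 2 libraries per group and fusion libraries of 9381954 to 17876711 counts, small changes of genes near 1 CPM were not detectable at this depth. No count here separates a change of every cell from a change in a part of the cells.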

Other observations

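Of 22 cyclin, CDK and CDK inhibitor genes 11 rose and 2 fell (median 0.27; 21.3% of all tested genes rose and 22.8% fell). Ccnd3 was at 141 and 125 CPM under the empty vector, 250 and 263 under full-length ZNF384, 102 and 111 under TAF15-ZNF384 and 90.9 and 94.5 under TCF3-ZNF384. Ccnd3, the cyclin D3 gene that pre-B cells use to divide, was below both controls in both fusions, at −0.89 ± 0.07 (SE, adjusted p = 4.23e-07). The CDK inhibitor gene Cdkn2b rose from between 2.59 and 5.69 CPM in the controls to between 8.93 and 12.4 in the fusions, a log2 fold change of 1.37 ± 0.15 (SE, adjusted p = 7.71e-06), and the retinoblastoma gene Rb1 rose by 0.63 ± 0.07 (SE, adjusted p = 5.43e-06), both without overlap. Of 31 DNA replication genes 13 fell and 2 rose, with a median of −0.17, and 1 faller and 1 riser had no overlap. Leaving out 1 library gave 6 (TCF3-ZNF384 replicate 2) to 20 (full-length ZNF384 replicate 2) fallers in that list, and also 7 without TAF15-ZNF384 replicate 1 or TCF3-ZNF384 replicate 1 and 8 without empty vector replicate 1.

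Chromatin regulators rose in 14 of 24 tested members and fell in 3 (all tested genes: 21.3% and 22.8%). The list's median of 0.26 was 0.01 after the length and GC trend was removed. Dnmt3b, a de novo DNA methyltransferase gene, rose from between 2.01 and 2.93 CPM in the controls to between 4.87 and 13.6 in the fusions, a log2 fold change of 1.66 ± 0.15 (SE, adjusted p = 1.43e-06), and the histone demethylase gene Kdm5b rose by 1.45 ± 0.14 (SE, adjusted p = 1.98e-06). The histone deacetylase gene Hdac9 was at −0.75 ± 0.07 (SE, adjusted p = 3.24e-06), without overlap. In the RAS and MAPK list 8 of 20 members rose (5 without TAF15-ZNF384 replicate 1) and 6 fell, with a median of −0.11. Rasgrp1 was at 29.1 and 25.1 CPM under the empty vector, 45.3 and 65.3 under full-length ZNF384, 79.5 and 69.7 under TAF15-ZNF384 and 292 and 286 under TCF3-ZNF384. Rasgrp1, an activator gene of RAS in lymphocytes, was above both controls in both fusions, at 1.93 ± 0.11 (SE, adjusted p = 4.6e-08).

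In several further lists the median was near the 0.01 of all tested genes, of which 21.3% rose and 22.8% fell. In the IL-7 and JAK-STAT list 5 of 22 members rose (3 without TAF15-ZNF384 replicate 2) and 3 fell, with a median of 0.10. Socs2, a feedback inhibitor gene of STAT signalling, fell from between 915 and 1163 CPM in the controls to between 598 and 752 in the fusions, a log2 fold change of −0.66 ± 0.07 (SE, adjusted p = 3.51e-06). Of 17 genes of the BCL2 family and cell death 7 rose and 3 fell (median −0.03), of 20 Notch pathway genes 6 rose and 5 fell (median 0.09), and of 20 interferon response genes 7 rose and 1 fell (median 0.01), none of these last without overlap. Of 11 TNF and interleukin ligand genes 3 rose and 5 fell (median −0.003). Myeloid regulators rose in 3 of 8 (1 without TAF15-ZNF384 replicate 2) and fell in 1 of 8 tested members (median 0.04), and stem and progenitor regulators rose in 4 of 9 and fell in 2 (median −0.03). Mycn, a MYC family gene, was at −0.77 ± 0.08 (SE, adjusted p = 6.86e-06) and Gfi1, a repressor gene of lymphoid and myeloid progenitors, at −0.92 ± 0.09 (SE, adjusted p = 4.37e-06), both without overlap.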
